A study of Mus musculus with 6 samples.

Results

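MHC class I presentation genes were followed in C57/BL mouse back skin treated with cyclosporin A or with its ethanol control. The set holds 10 listed genes: the heavy chains H2-D1, H2-K1, H2-Q10 and H2-T23, the light chain B2m, the peptide transport and loading genes Tap1, Tap2 and Tapbp, and the immunoproteasome subunits Psmb8 and Psmb9. A gene was taken in when a probe carried a RefSeq accession of that gene, and 9 of the 10 had such a probe and were tested, among 22054 genes in all. H2-K1 was not analysed here, because no probe carried its accession. Each of 6 dual-colour arrays set RNA of cyclosporin A skin (Cy5) against RNA of ethanol skin (Cy3) of the same day, with 2 arrays each for days 2, 4 and 7 after treatment. The design text counts 2 biological replicates per treatment and day, while the labels do not say how many animals gave each sample, nor the dose. The tests therefore rest on array-to-array spread alone, which may be partly technical. Cyclosporin A suppresses T cells by inhibiting, in complex with cyclophilin, the phosphatase calcineurin and with it the activation of NFAT. In whole skin, fewer cells of a type and less RNA per cell cannot be told apart.

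MHC class I molecules show peptides from inside a cell to CD8 T cells. The immunoproteasome cuts proteins into peptides, the TAP transporter carries them into the endoplasmic reticulum, tapasin holds the transporter next to an empty class I molecule, and a heavy chain paired with beta-2-microglobulin takes up the peptide and moves to the cell surface. Nearly all nucleated cells make these proteins, and interferon gamma is known to raise the transcription of most of their genes together.

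Values are the log2 of cyclosporin A over ethanol, so that a negative ratio is lower with cyclosporin A, and a day's value is the mean of its 2 arrays with limma's standard error (SE). A gene was called when its Benjamini-Hochberg adjusted p in limma's fit, over all genes, was under 0.05. Between 59.6% and 68.8% of probes were well above background in the cyclosporin A channel and between 43.2% and 56.4% in the ethanol channel. All 13 keratinocyte and fibroblast markers checked, Krt14 and Col1a1 among them, passed the filter on dim probes. Days 2 and 4 shared a slide and day 7 had another, so that day 7 and its slide cannot be told apart. There was no dye swap, and a difference between dyes and the treatment cannot be told apart within a day.

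The array of day 7 replicate 1 stood apart. There, the spots of 32 bright probes printed at least 10 times had a median SD of 0.40 between spots, against 0.07 to 0.08 on the other 5 arrays. Its 304 bright spots in columns 1 to 10, of 85, had a median ratio of -0.70, and its 2823 other bright spots had a median of -0.03. On the other 5 arrays the medians in columns 1 to 10 lay between -0.04 and 0.02. H2-D1 was printed once, in column 1, and Psmb9 once, in column 2. Day 7 values are therefore also given with loess run within blocks of the array, an alternative chosen after these spots were seen, and without this array.

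**Figure D1:**
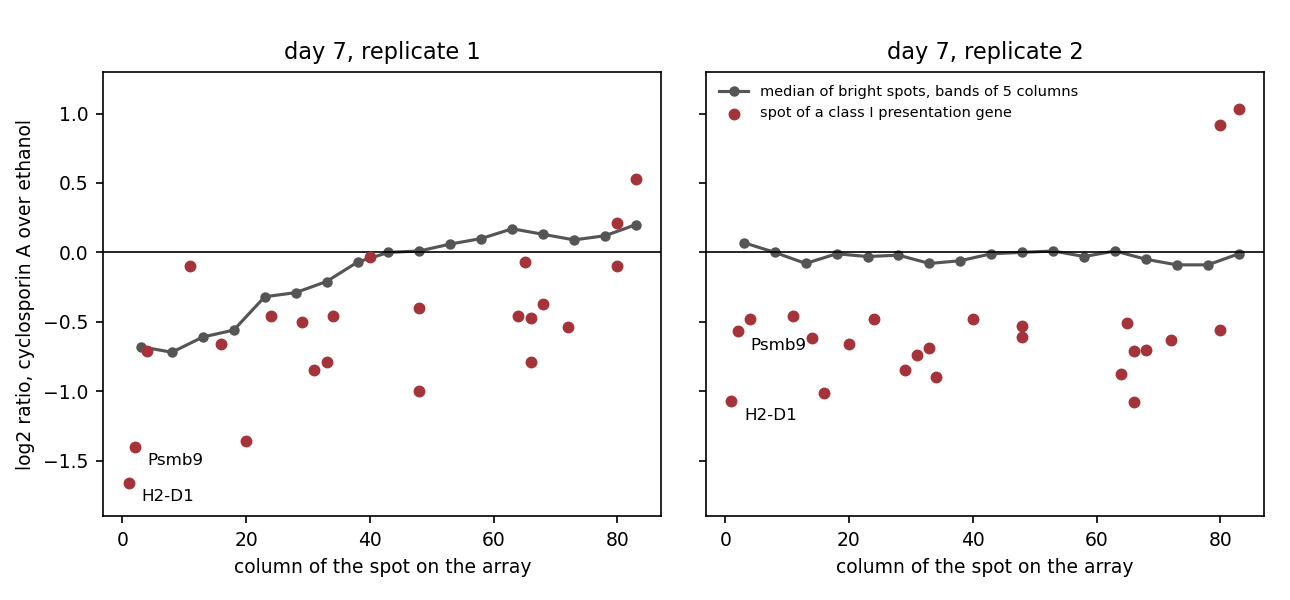
Log2 ratio of cyclosporin A over ethanol by the column of the spot, on both arrays of day 7. The grey line is the median of all bright spots in bands of 5 columns and each red point is 1 spot of a class I presentation gene. On replicate 1 the band medians ran between -0.72 and 0.20 across the array, and on replicate 2 they lay between -0.09 and 0.07.

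At day 7 all 9 genes had ratios below 0 on both arrays, with a median over genes of -0.68 beside 0.03 over all genes tested. limma called 4 of them lower, H2-D1, Tapbp, H2-Q10 and Tap1, and 0 higher. Over all genes 0.658% were called lower (145 of 22053) and 2.37% higher (523). At day 2 the 9 genes had a median of -0.38 and at day 4 of -0.55, with 9 and 8 of 9 below 0. limma called 0 of 9 lower at each of these days, at an unadjusted p under 0.05 there were 5 at day 2 and 6 at day 4, and the share called lower over all genes was 0% at both. Over the 3 days together 8 of 9 were called lower, all but B2m, with 3.32% of all genes called lower and 9.59% called higher.

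The day 7 count moved with the treatment of the array that stood apart. With loess within blocks, 6 of 9 genes were called lower, with 0.295% of all genes (65 of 22053). They were H2-D1, H2-T23, B2m, Tap2, Psmb8 and Psmb9, so that only H2-D1 was called under both. Without day 7 replicate 1, 0 of 9 were called, with 0.0363% of all genes (8 of 22044), while the ratios of the 9 genes on the array that was left lay between -1.08 and -0.48. The count was 1 without either array of day 4 and 2 without day 7 replicate 2. It was 0 under median centring of each array and 0 with the scanner software's processed signals.

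**Figure D2:**
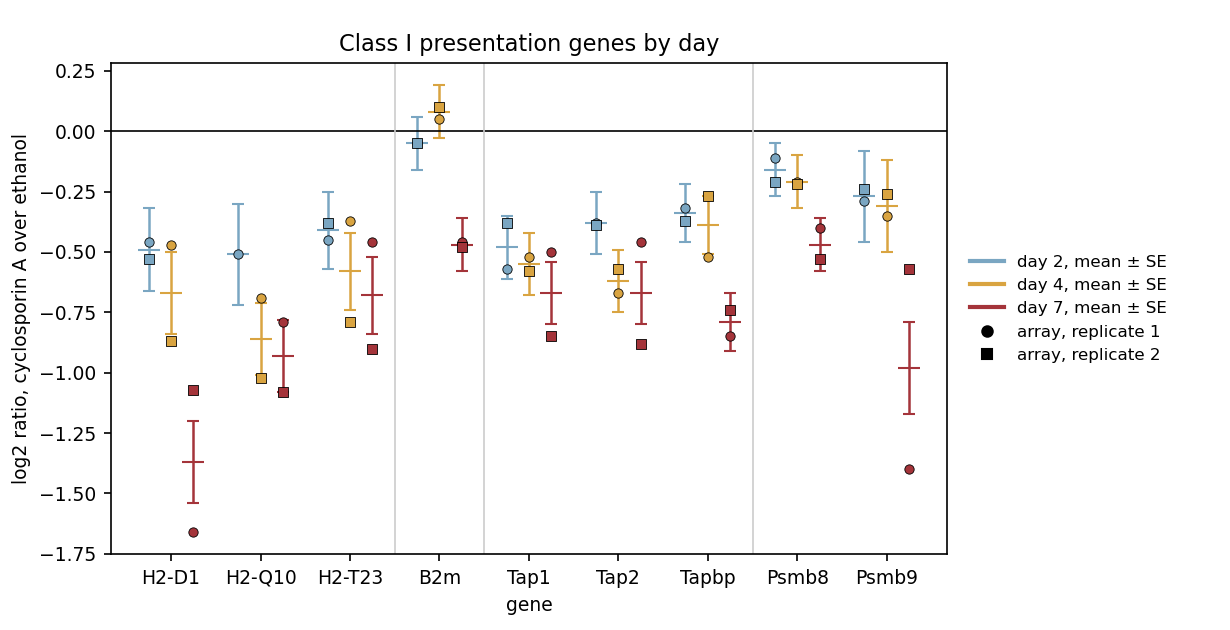
Log2 ratio of cyclosporin A over ethanol for the 9 genes (across) at days 2, 4 and 7 (colours), grouped as heavy chains, light chain, peptide transport and loading, and immunoproteasome. Circles and squares are replicates 1 and 2, and bars are the mean with limma's SE. At day 7 every point lies below 0, and H2-D1 and Psmb9 have the widest gap between replicates.

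H2-D1, the heavy chain of the D locus that presents peptides to CD8 T cells, had the lowest ratio of the 9 genes at day 7. Its log2 ratios were -0.46 and -0.53 at day 2, -0.47 and -0.87 at day 4, and -1.66 and -1.07 at day 7. The day 7 mean of -1.37 (SE 0.17, n = 2, adjusted p = 0.0170, limma) is 2.58-fold lower with cyclosporin A, and 0.0635% of genes had a lower ratio that day. The raw median pixel intensities at day 7 were 19400 and 35800 in the cyclosporin A channel, against 41100 and 40900 in the ethanol channel. At day 2 they were higher with cyclosporin A, at 57700 and 68100 against 40700 and 43000. Raw intensities precede background removal and loess and need not share the sign of the ratio. For B2m at day 7 they were 19600 and 24500 with cyclosporin A, against 18700 and 19600. With loess over the whole array, the ratios of day 7 did not overlap those of days 2 and 4. Yet the difference between days 7 and 2 of -0.87 (SE 0.24) had an adjusted p of 0.543 in limma. Run within blocks, loess put day 7 replicates 1 and 2 at -0.68 and -0.89. With loess within blocks the day 7 ratio was -0.79 (SE 0.13, adjusted p = 0.0455), and without replicate 1 it was -1.07 (adjusted p = 0.116).

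The promoters of H2-D1 and H2-Q10 are shown because these are the heavy chains of the set whose day 7 ratio was called below 0, for H2-Q10 on its brightest probe, and their upstream sequences are alike. The sequences are RefSeq's for GRCm38.p6, the 250 bases before each start, both on the plus strand, for H2-D1 at chr17:35262844-35263093 and for H2-Q10 at chr17:35469839-35470088. Capitals mark GGG and CCC 4 bases apart (NF-kB type) and ATTGG or its reverse complement CCAAT (the Y box of MHC promoters).
H2-D1: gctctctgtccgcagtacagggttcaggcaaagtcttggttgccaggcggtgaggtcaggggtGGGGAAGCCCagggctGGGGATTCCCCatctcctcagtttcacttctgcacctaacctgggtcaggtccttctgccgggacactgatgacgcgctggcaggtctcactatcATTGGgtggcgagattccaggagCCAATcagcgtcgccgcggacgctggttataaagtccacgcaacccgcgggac
H2-Q10: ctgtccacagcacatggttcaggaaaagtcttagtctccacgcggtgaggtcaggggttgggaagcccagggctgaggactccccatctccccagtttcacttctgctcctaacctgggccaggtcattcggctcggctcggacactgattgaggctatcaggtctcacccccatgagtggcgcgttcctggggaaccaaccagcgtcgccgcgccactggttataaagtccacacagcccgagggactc
In an alignment, 207 of the 250 bases were identical (82.8%). H2-D1 held 3 NF-kB type matches, of which the last 2 overlap, between bases -187 and -161 before the start, and 2 Y box matches between -76 and -49. H2-Q10 held neither set of letters in this window.

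H2-Q10 codes for a heavy chain that lacks a membrane anchor and is secreted, in mice chiefly by the liver. Its brightest probe, which stood for the gene, had ratios of -0.51 at day 2 replicate 1, -0.69 and -1.02 at day 4, and -0.79 and -1.08 at day 7. The spot of day 2 replicate 2 was marked as an outlier and left out, so that day 2 rests on 1 array. The day 7 mean was -0.93 (SE 0.15, adjusted p = 0.0384, limma). The value from loess within blocks was -0.82 (adjusted p = 0.0855), and without day 7 replicate 1 it was -1.08 (adjusted p = 0.154). Day 7 minus day 4 was -0.08 (SE 0.21, adjusted p = 0.977).

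The 4 probes that carry the accession of H2-Q10 did not give the same result. The brightest probe and A_52_P428354 had ratios below 0 on every array measured, with a day 7 mean of -0.83 (SE 0.16) for the second. The dim probes A_51_P230267 and A_51_P230269 had day 7 means of 0.56 (SE 0.21) and 0.78 (SE 0.24), and neither was called. Raw intensity at day 7 was 36800 and 40300 in the cyclosporin A channel on the brightest probe, against 41400 and 45500 in the ethanol channel. On A_51_P230269 it was 524 and 820 in the cyclosporin A channel, against 397 and 394 in the ethanol channel. Averaged over its probes, H2-Q10 had a day 7 ratio of -0.11 (adjusted p = 0.629, limma). Class I heavy chains are close paralogs, and whether a probe binds the RNA of more than 1 of them was not tested, since no probe sequences are given in the sources used here.

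**Figure D3:**
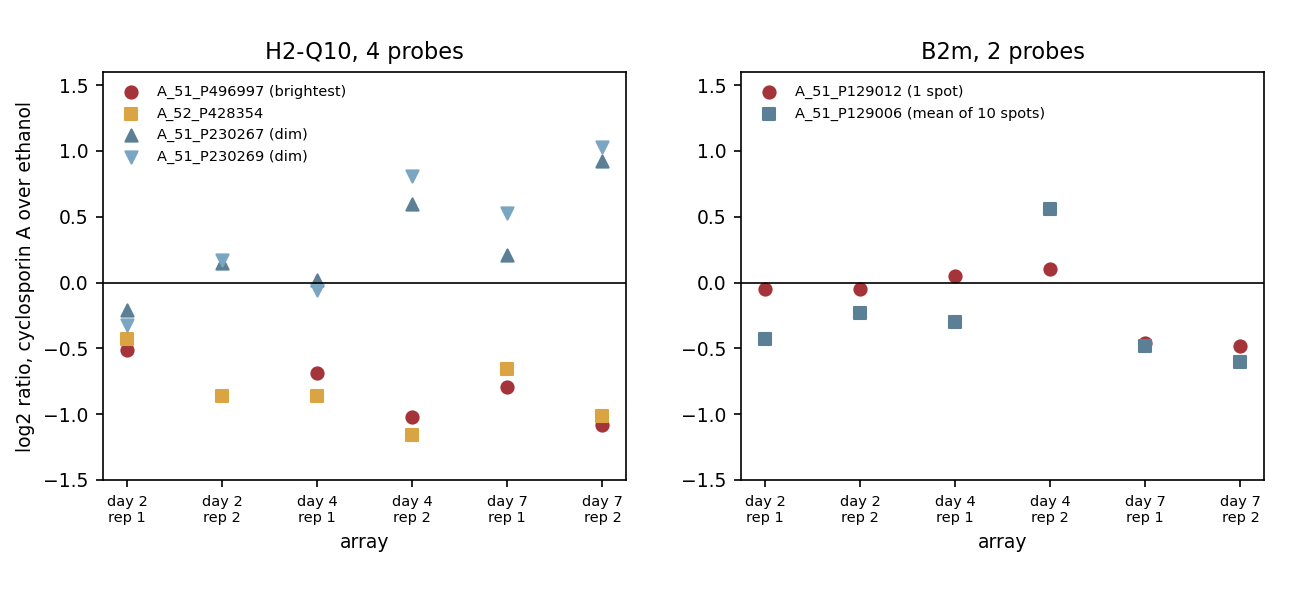
Log2 ratio of cyclosporin A over ethanol on each array (across) for the 4 probes of H2-Q10 and the 2 probes of B2m. At day 7 the brightest H2-Q10 probe stood at -0.79 and -1.08 and the dim probe A_51_P230269 at 0.53 and 1.03.

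H2-T23 codes for a non-classical heavy chain, Qa-1, a ligand of inhibitory receptors on natural killer cells. Its ratios were -0.45 and -0.38 at day 2, -0.37 and -0.79 at day 4, and -0.46 and -0.90 at day 7. All 6 arrays were below 0, and day 4 overlapped both other days. The day 7 mean of -0.68 (SE 0.16) was not called (adjusted p = 0.0778, limma), and it was -0.91 with loess within blocks (adjusted p = 0.0419). The average over days of -0.56 was called lower (SE 0.09, adjusted p = 0.0187).

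B2m, the light chain shared by all class I molecules, had ratios near 0 at days 2 and 4. Its ratios were -0.05 on both arrays of day 2, 0.05 and 0.10 at day 4, and -0.46 and -0.48 at day 7. Day 7 lay below the other days on both arrays, with a mean of -0.47 (SE 0.11, adjusted p = 0.0720, limma), and day 7 minus day 2 was -0.42 (SE 0.15, adjusted p = 0.739). Loess within blocks gave a day 7 ratio of -0.64 (adjusted p = 0.0356). Its second probe, the mean of 10 spots, had ratios of -0.43 and -0.23 at day 2, -0.30 and 0.56 at day 4, and -0.48 and -0.60 at day 7. Both probes were below 0 on both arrays of day 7 and apart at day 4 replicate 2. At day 7 replicate 1 its 10 spots ran between -1.36 and -0.03 (SD 0.45), and at day 4 replicate 2 they had an SD of 0.07.

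The B2m promoter is on another chromosome than the rest of the set. It is shown because it held the letters of an interferon response element, GAAA and GAAA 2 bases apart, a set found in 3.04% of all 27025 promoters of the table. The 250 bases before the start lie at chr2:122147437-122147686 on the plus strand (GRCm38.p6), with the interferon type match at -139 to -130 and a Y box match at -53 to -49 in capitals.
B2m: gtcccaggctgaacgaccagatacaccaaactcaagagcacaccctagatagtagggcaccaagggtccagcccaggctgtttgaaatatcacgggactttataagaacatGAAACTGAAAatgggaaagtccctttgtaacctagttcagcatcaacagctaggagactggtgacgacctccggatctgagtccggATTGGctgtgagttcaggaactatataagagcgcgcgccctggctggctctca
Of the 9 listed genes with a promoter in the table (not Tap2, and H2-K1 included), 2 held the interferon type letters (B2m and H2-T23) and 7 held the Y box letters, Psmb9 and Tap1 in the same place, beside 34.5% of all promoters. H2-D1 and H2-K1 held the NF-kB type letters, beside 2720 of all 27025. None held TGACGT on either strand, found in 6.56% of all promoters. These are matches of letters, searched on both strands, and not sites. Only these exact letters and spacings were searched, so a promoter without a match may still hold another form of the element.

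Tap1 and Tap2, which together form the transporter that carries peptides into the endoplasmic reticulum, had like values. Tap1 had ratios of -0.57 and -0.38 at day 2, -0.52 and -0.58 at day 4, and -0.50 and -0.85 at day 7. Tap2 had ratios of -0.38 and -0.39 at day 2, -0.67 and -0.57 at day 4, and -0.46 and -0.88 at day 7. Every array was below 0 for both, and the day 7 values of both overlapped those of the earlier days. The day 7 means were both -0.67 (SE 0.13), with an adjusted p of 0.04996 for Tap1 and 0.0539 for Tap2 in limma, on either side of the threshold. Loess within blocks gave -0.51 for Tap1 (adjusted p = 0.197) and -0.73 for Tap2 (adjusted p = 0.0336). Raw intensities of Tap1 at day 7 were 294 and 373 in the cyclosporin A channel, against 465 and 616 in the ethanol channel.

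Tapbp, which codes for tapasin, had ratios of -0.32 and -0.37 at day 2, -0.52 and -0.27 at day 4, and -0.85 and -0.74 at day 7. On this brightest probe day 7 lay below both earlier days, and its mean of -0.79 (SE 0.12) was called lower (adjusted p = 0.0242, limma), with 1.19% of genes lower still. Loess within blocks gave -0.40 (adjusted p = 0.257), with the arrays at -0.07 and -0.73. The second probe of Tapbp had ratios of -0.08 and -0.62 at day 2, -0.51 and -0.95 at day 4, and -0.71 and -0.48 at day 7 (day 7 mean -0.60, SE 0.18, adjusted p = 0.129). On that probe day 7 overlapped both earlier days and its mean lay above that of day 4 (-0.73, SE 0.18).

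Psmb8 and Psmb9 code for catalytic subunits that replace constitutive ones in the immunoproteasome. Psmb8 had ratios of -0.11 and -0.21 at day 2, -0.21 and -0.22 at day 4, and -0.40 and -0.53 at day 7. Psmb9 had ratios of -0.29 and -0.24 at day 2, -0.35 and -0.26 at day 4, and -1.40 and -0.57 at day 7. Day 7 lay below the earlier days for both, and the Psmb9 arrays of day 7 differed by more than the whole range of its earlier ones. The day 7 means were -0.47 (SE 0.11, adjusted p = 0.0791) for Psmb8 and -0.98 (SE 0.19, adjusted p = 0.05037) for Psmb9 in limma. With loess within blocks they were -0.70 (adjusted p = 0.0258) for Psmb8 and -0.69 (adjusted p = 0.0272) for Psmb9, whose arrays then stood at -0.70 and -0.69. A second probe of Psmb8, measured on 1 array of day 7, gave -0.62.

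Psmb9 and Tap1 lie head to head on chromosome 17, and Psmb8 and Tap2 follow Tap1 in the order of the RefSeq table. The 225 bases between the starts of Psmb9 and Tap1 are shown because both genes are read from this stretch, at chr17:34187331-34187555 (GRCm38.p6, plus strand, toward Tap1), with a Y box match next to the start of Psmb9 in capitals.
Psmb9-Tap1: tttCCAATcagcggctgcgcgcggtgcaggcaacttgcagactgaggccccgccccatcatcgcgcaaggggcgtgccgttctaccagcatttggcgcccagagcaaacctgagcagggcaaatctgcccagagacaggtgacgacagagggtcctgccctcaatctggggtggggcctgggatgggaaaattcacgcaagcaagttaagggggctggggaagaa
At day 7 replicate 2 the ratio was -0.57 for Psmb9 and -0.85 for Tap1. At days 2 and 4 Psmb9 lay between -0.35 and -0.24 and Tap1 between -0.58 and -0.38.

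Fitted probe by probe, all 15 probes of the 9 genes passed the filter, and 13 were below 0 at day 7. The exceptions were the dim probes of H2-Q10. In limma 3 of the 15 were called lower at day 7, beside 0.544% of all probes (152 of 27935). At day 2 all 15 and at day 4 11 of 15 were below 0, with 0 called at either day.

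The ratio between days was tested for each gene. The difference between days 7 and 2 was below 0 for 9 of 9, with a median of -0.42 beside -0.01 over all genes. limma called 0 of 9 lower, 4 had an unadjusted p under 0.05, and the share of all genes called lower was 0%. Averaged over the 3 days, the ratios of the called genes were -0.84 for H2-D1 (SE 0.10, adjusted p = 0.0108), -0.77 for H2-Q10, -0.57 for Tap1, -0.56 for Tap2, -0.56 for H2-T23, -0.52 for Psmb9, -0.51 for Tapbp and -0.28 for Psmb8 (adjusted p = 0.0369). B2m averaged -0.15 (SE 0.06, adjusted p = 0.148). Loess within blocks also gave 8 called, with B2m (-0.26, adjusted p = 0.0436) and without Tapbp (-0.35, adjusted p = 0.0754). The share of all genes called over the average was not counted under the alternatives, so these counts have no such share beside them. The number called over the average was 0 without day 4 replicate 2, 1 without day 4 replicate 1, 5 without day 2 replicate 1 or day 7 replicate 2, and 0 under median centring.

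Each channel was also followed alone, on log2 intensities scaled between arrays. H2-D1 had levels of 15.30 and 15.35 in cyclosporin A skin at day 2, 15.37 and 15.06 at day 4, and 14.27 and 14.71 at day 7. In ethanol skin it had 15.77 and 15.87 at day 2, 15.84 and 15.92 at day 4, and 15.92 and 15.79 at day 7. The difference between days 7 and 2 was -0.83 in the cyclosporin A channel (SE 0.20, adjusted p = 0.132, limma) and 0.04 (SE 0.14) in the ethanol channel. The day 7 level of 14.27 in cyclosporin A skin came from replicate 1, the array that stood apart. Over the alternatives the difference in cyclosporin A skin lay between -1.07 and -0.61.

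Across the 9 genes, the cyclosporin A channel at day 7 minus day 2 had a median of -0.29, with 8 of 9 below 0. limma called 0 of 9 lower there, 4 had an unadjusted p under 0.05, and 0.0453% of all genes were called lower. The ethanol channel had a median of 0.07, limma called 0 of 9 higher, 1 had an unadjusted p under 0.05, and 0.0317% of all genes were called higher. That gene was H2-T23, whose level differed from day 2 by 0.34 (SE 0.14) in ethanol skin and by 0.07 (SE 0.20) in cyclosporin A skin. Psmb9 differed by -0.69 (SE 0.26) in cyclosporin A skin and by 0.02 (SE 0.15) in ethanol skin. In cyclosporin A skin its day 7 levels were 11.91 on replicate 1, the array that stood apart, and 12.75 on replicate 2. At day 2 they were 13.05 and 12.99. Over the alternatives the Psmb9 difference in cyclosporin A skin lay between -1.11 and -0.27. Without day 7 replicate 2, the difference in the cyclosporin A channel was -1.06 for H2-D1 and -1.11 for Psmb9. Day 7 then rests on replicate 1, the array that stood apart, where these genes were printed in columns 1 and 2.

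**Figure D4:**
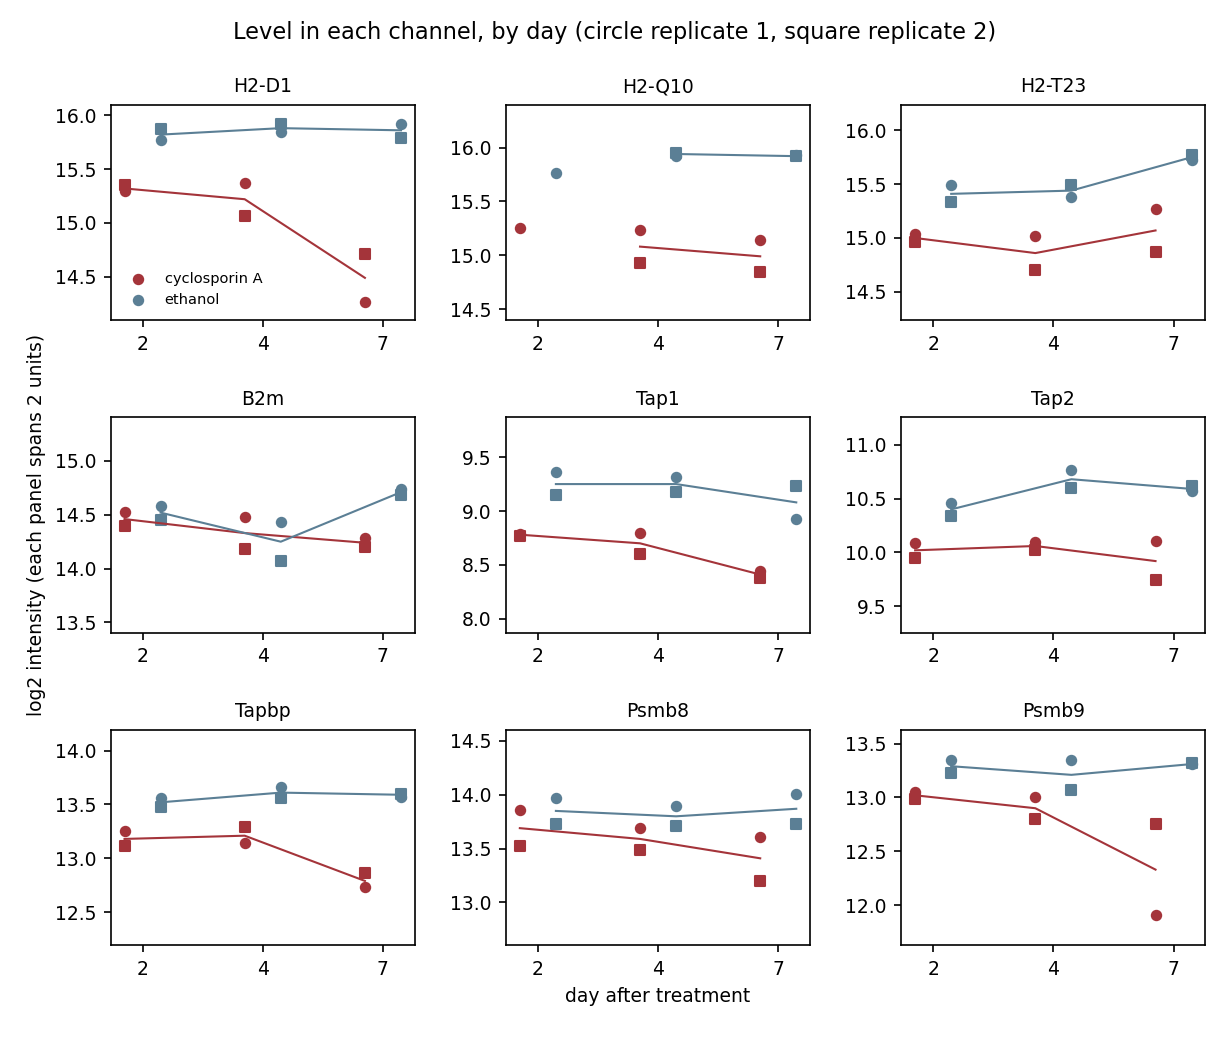
Log2 intensity of each gene in the cyclosporin A channel (red, left of each pair) and the ethanol channel (blue) at days 2, 4 and 7, with lines through the means. Levels of different genes are different probes and are not compared. H2-D1 in cyclosporin A skin averaged 14.49 at day 7, against 15.86 in ethanol skin.

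Other MHC class I heavy chains were also mostly below 0. Of 22 listed, 10 were tested, 8 of them were below 0 at day 7 and the median was -0.46. limma called 3 lower, H2-Q1 (-1.32, adjusted p = 0.0285), H2-T22 (-0.87, adjusted p = 0.0344) and H2-Q7 (-0.85, adjusted p = 0.0362), and 0 higher. H2-Q1 had ratios of -1.68 and -0.96 at day 7, H2-T22 -0.70 and -1.03, and H2-Q7 -0.66 and -1.04. With loess within blocks H2-Q1 and H2-Q7 were called and H2-T22 was not (-0.76, adjusted p = 0.0760). The count was 0 with processed signals, under median centring and without any 1 array of days 4 and 7, with adjusted p-values between 0.115 and 0.184 without day 7 replicate 1. H2-T24 (0.08) and H2-Q8 (0.39, adjusted p = 0.172) stood above 0 at day 7. Over the average of days 6 of the 10 were called lower, H2-Q1, H2-Q2, H2-Q7, H2-T10, H2-T22 and H2-Bl, between -0.93 and -0.42, and H2-Q8 was called higher (0.48, adjusted p = 0.0194). Being paralogs, these probes may share RNA with those of H2-D1 and H2-Q10, which was not tested. Class I-like chains, with Procr highest (0.85) and Mill2 lowest (-0.34), had a median of 0.11 at day 7, with 0 of 9 called and 2 at an unadjusted p under 0.05. Over the average of days 1 of the 9 was called higher, beside 9.59% of all genes, and 5 had an unadjusted p under 0.05.

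Other genes of peptide loading and of the proteasome had medians nearer 0, a difference that was not tested. Helpers of loading, among them the chaperone Calr (0.09), the trimming peptidase Erap1 (0.07), Pdia3 (-0.52, the lowest) and Sec61b (0.36, the highest), had a median of 0.04 at day 7 with 0 of 12 called and 1 at an unadjusted p under 0.05. Psmb10, the remaining catalytic subunit of the immunoproteasome, stood at -0.21 (SE 0.18) and Psme1, of its activator, at -0.11 (SE 0.12). Their list, with Pomp lowest (-0.28) and Psme3 highest (0.13), had 0 of 6 called at day 7 and 0 at an unadjusted p under 0.05. Over the average of days 5 of the 6 were below 0, with a median of -0.12. There 1 of the 6 was called lower, beside 3.32% of all genes. The 20S core and 19S cap lists below had 1 each called higher over that average, beside 9.59% of all genes. The constitutive subunits Psmb5, Psmb6 and Psmb7, which Psmb8, Psmb9 and Psmb10 replace, stood at 0.15, -0.17 and 0.14 at day 7, with 0 of 3 called and 0 at an unadjusted p under 0.05. The other 20S core subunits had a median of 0.25 (Psma2 lowest at -0.08, Psmb3 highest at 0.45), with 0 of 11 called and 3 at an unadjusted p under 0.05, and the 19S cap one of 0.12, with Psmc5 called higher (0.68, adjusted p = 0.0420). Psmc5 was not called with loess within blocks (0.54, adjusted p = 0.0531) or without day 7 replicate 1 (0.56, adjusted p = 0.266).

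Among 27 regulators tested, whose median was -0.09, Irf1 was called lower at day 7 and 0 were called higher. Of the 27, 16 were below 0 that day and 7 had an unadjusted p under 0.05. They lay between -1.34 and 0.48, and Socs1 stood at 0.48. Over the average of days 1 was called lower and 1 higher, beside 3.32% and 9.59% of all genes. Irf1 is a transcription factor, induced by interferon gamma, that acts on class I, Tap1 and Psmb9 promoters. Its ratios were -0.73 and -0.50 at day 2, -0.50 and -0.43 at day 4, and -1.17 and -0.59 at day 7 (mean -0.88, SE 0.16, adjusted p = 0.0427, limma), below 0 on all 6 arrays. Loess within blocks gave a mean of -0.50 (adjusted p = 0.0760), and the call was also lost with processed signals, under median centring and without any 1 of the 6 arrays (-0.59, adjusted p = 0.249, without day 7 replicate 1). Ifng, which codes for interferon gamma, stood at 0.01 (SE 0.13).

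The interferon-responsive list had a median of -0.05 at day 7 over 26 genes. There 1 was called lower, Cxcl9, a chemokine that attracts T cells and is induced by interferon gamma. Cxcl9 had ratios of -1.66 and -1.31 at day 2, -1.28 and -1.48 at day 4, and -0.60 and -1.08 at day 7 (day 7 mean -0.84, SE 0.16, adjusted p = 0.0475). It was called with loess within blocks (-0.89, adjusted p = 0.0380), and not with processed signals or without any 1 array of days 4 and 7 (-1.08, adjusted p = 0.115, without day 7 replicate 1). Averaged over days, 6 of the 26 were called lower: Cxcl9 (-1.24, adjusted p = 0.0034), Cxcl10, Igtp, Gbp7, Gbp3 and Gbp2. The list's median differed between arrays, at 0.96 on day 2 replicate 1 and -0.36 on day 2 replicate 2, and Ifit1 stood at 1.59 and -0.16 there. The 9 class I presentation genes had medians of -0.38 and -0.37 on these arrays. At day 4 the list's median was -0.37, with 24 of 26 below 0, 0 called and 8 at an unadjusted p under 0.05. Its medians on the arrays of day 4 were -0.54 and -0.35, and those of the 9 genes were -0.47 and -0.57.

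Markers of cells that make much MHC were read on the same arrays. The MHC class II and Langerhans cell list had 11 of 11 below 0 at day 7, a median of -0.66 and 4 called lower: Cd74 (-1.46), the invariant chain, H2-Eb1 (-1.40), H2-DMb2 (-1.32) and H2-Aa (-1.23). Under loess within blocks the last 3 of these were called and Cd74 was not (-1.01, adjusted p = 0.0611). Without either array of day 7, and with processed signals, 0 were called, with adjusted p-values of the 4 between 0.0756 and 0.141 without replicate 1. At day 2 its median was -0.42, with 9 of 11 below 0, where the 9 class I presentation genes had -0.38. At day 4 its median was 0.07, where the 9 class I presentation genes had -0.55. Cd207, a Langerhans cell marker, stood at -0.06 at day 7. Over the average of days 4 of the 11 were called lower, beside 3.32% of all genes. The leukocyte list had 10 of 10 below 0, a median of -0.41 and Ptprc called lower (-0.77, SE 0.12, adjusted p = 0.0320). Ptprc was not called with loess within blocks (-0.70, adjusted p = 0.0534) or without day 7 replicate 1 (-0.82, adjusted p = 0.169). The list had 0 called at day 7 with processed signals, under median centring and without any 1 array of days 4 and 7. Over the average of days 1 of the 10 was called lower, beside 3.32% of all genes.

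The T cell list had a median of -0.21 at day 7, with 0 of 14 called and 4 at an unadjusted p under 0.05. Of the 14, 10 were below 0. Its lowest marker was Cd5 (-0.75, adjusted p = 0.0609), its highest stood at 0.23, and Cd3e stood at 0.11. Natural killer cell markers had a median of -0.15, between -0.36 (Gzmb) and 0.33 (Klrb1c), with 0 of 9 called and 1 at an unadjusted p under 0.05. Macrophage markers had -0.33, between -1.10 (Cd163) and 0.31 (Msr1), with 0 of 12 called and 3 at an unadjusted p under 0.05. Their medians on the arrays of day 2 were 0.89 and -0.50. Endothelial markers had -0.11, between -0.48 (Cldn5) and 0.47 (Cdh5), with 0 of 11 called and 2 at an unadjusted p under 0.05. Keratinocyte and fibroblast markers had -0.22, between -1.22 (Lor, adjusted p = 0.0537) and 0.18 (Pdgfra), with 0 of 13 called and 3 at an unadjusted p under 0.05. Over the average of days 2 of the 14 T cell markers and 1 of the 12 macrophage markers were called lower. There 2 of the 9 natural killer cell markers were called higher. The endothelial list and the keratinocyte and fibroblast list had 0 called. Over all genes 3.32% were called lower and 9.59% higher on that average. The part of any of these cells in the class I values was not tested.

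**Figure D5:**
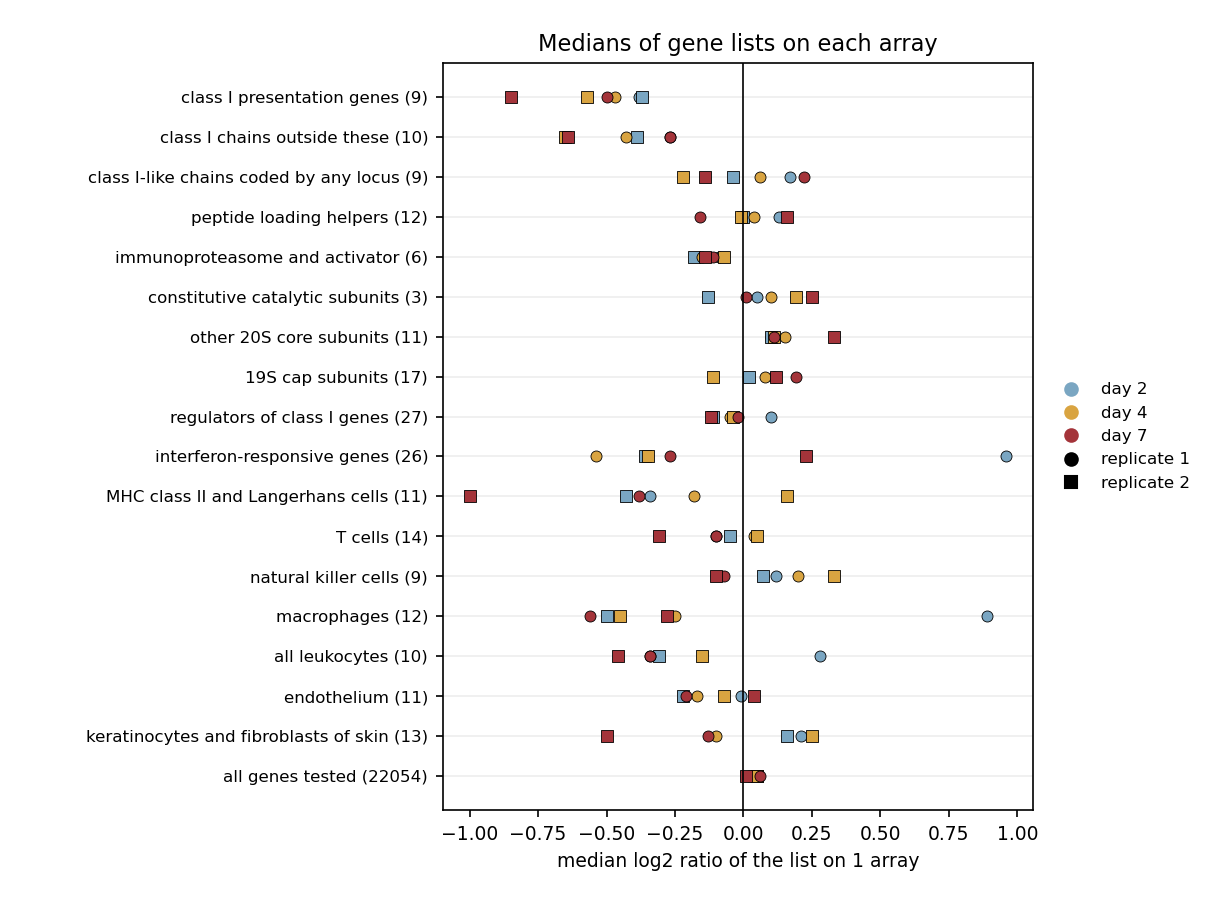
Median log2 ratio of cyclosporin A over ethanol of each gene list (down, number of genes tested in brackets) on each of the 6 arrays. Colours are days, circles replicate 1 and squares replicate 2. The class I presentation genes lie between -0.85 and -0.37 on the 6 arrays, and all genes tested between 0.01 and 0.06.

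The genes whose 6 ratios were most like the mean of the 9 genes were sought among 6597 genes that varied at least as much. That mean was -0.35 and -0.32 at day 2, -0.41 and -0.50 at day 4, and -0.77 and -0.79 at day 7. On day 7 replicate 1, the array that stood apart, it includes H2-D1 (-1.66) and Psmb9 (-1.40). The median of the 9 genes was -0.50 there and -0.85 on replicate 2. How far the ranking of similar genes depends on that array was not tested. Pearson's r over the 6 arrays was 0.974 for Ecm1, 0.971 for Acer2, 0.965 for Smtnl2 and Mfap4, 0.956 for Itm2b, 0.953 for Nol3, 0.951 for Hamp2 and 0.949 for Arl4d. Ecm1 and Mfap4 code for extracellular matrix proteins, and Ecm1 stood at -0.95 and -0.93 at day 7. Hamp2 had day 7 ratios of -3.22 and -2.22. These are descriptions over 6 arrays that share days and slides.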

How the data were processed

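Cy5 (cyclosporin A) and Cy3 (ethanol) spot intensities were deposited as scanner output, which the submitters' processing notes credit to Agilent Feature Extraction 9.1. The deposited value table of log10 ratios equals the ratio column of those files (largest difference 0) and was used, as were the processed intensity signals deposited with them, as alternatives. From the median pixel intensities, background was removed by normexp (offset 50) and loess was run on each array in limma 3.58.1 (R 4.3.3), leaving out 1639 control spots of 45018 and 15 to 126 outlier spots per array. 0 spots were saturated. Spots were averaged per probe. A probe passed when, on both arrays of some day, it was well above background in at least 1 channel (27936 of 41174). The brightest probe stood for a gene. Names came from accessions in a RefSeq table of GRCm38.p6 (22951 probes named, 18223 not). Means per day were fitted to all 6 log2 ratios (residual degrees of freedom 3, prior ones 3.748, prior SD 0.199), without the replicate number as a block, because deviations of same-numbered arrays correlated at 0, -0.28 and -0.02. Single channels were scaled with Aquantile. With 2 arrays a day, the number of arrays limits precision. The fit was tested on simulated data. The genes and all lists were chosen with earlier results of these data known. The naming rule took every gene of the set, list genes called at any day, else a list's lowest and highest at day 7, and the 8 most similar genes. Other named genes were added after their values were seen. Some genes the rule names are not reported here. The genome build of the array design is not given in the sources used here.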

Additional observations from a re-analysis of the deposited data

How the results depend on the processing

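Ratios below 0 at day 7 held for H2-D1, H2-Q10, Tap1, Tap2, Tapbp and Psmb9 in all 18 alternatives, and for B2m, H2-T23 and Psmb8 in 17, all but median centring. In some of the alternatives the day 7 means could not move, so their signs were fixed in advance. They were the fits without a day 2 or day 4 array, with a replicate block, with an intensity trend, or over all probes. H2-D1 was called in 15 of the 18 at day 7, Tapbp in 9, H2-Q10 and Psmb9 in 5 each, and B2m, H2-T23, Psmb8, Tap1 and Tap2 in 1 each. The number of the 9 genes called lower at day 7 was 0 under median centring, 0 with processed signals, 1 with the deposited ratios, 2 with scale normalization, 1 with a replicate block and 0 to 3 when an array was left out. Over all genes it was 563, 26, 24, 44, 58 (replicate block), 65 (loess within blocks) and 8 to 194. The same-numbered arrays share only a number, and the block left 7 genes called over the average. Over the average the number was 0 under median centring and 0 to 6 when an array was left out, and in the cyclosporin A channel 0 to 2. The causes were not tested.

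Median centring leaves the shift with brightness in place: the 2206 brightest genes stood there at 0.88, 0.82 and 0.65 at days 2, 4 and 7, and with loess at 0, 0.03 and -0.05. The median of the 9 genes was 0.55, 0.41 and -0.11, and 0.23 over the average. Here limma called B2m higher at day 2 (adjusted p = 0.0101), at day 4 (0.97, adjusted p = 0.00845) and over the average (adjusted p = 0.000456). Psmb8 was called higher at days 2 and 4 (adjusted p = 0.012 and 0.0224). Tapbp (adjusted p = 0.0246) and H2-T23 (adjusted p = 0.0429) were called higher at day 2. The share of all genes called higher under median centring was not counted. Signs turned, for days 2, 4 and the average, to 0.55, 0.36 and 0.14 (H2-D1), 0.50, 0.17 and 0.22 (H2-Q10), 0.61, 0.41 and 0.41 (H2-T23), 0.74, 0.62 and 0.54 (Psmb8), 0.58, 0.46 and 0.23 (Psmb9) and 0.52, 0.41 and 0.27 (Tapbp), for Tap2 at day 2 to 0.25, and for B2m at day 2 and the average to 0.90 and 0.74. At day 7 B2m was 0.34, H2-T23 0.22 and Psmb8 0.26, and list medians were 0.04 (leukocytes), 0.23 (endothelium), 0.56 (immunoproteasome and activator), 0.32 (interferon-responsive), 0.71 (keratinocytes and fibroblasts), 0.25 (macrophages) and 0.28 (regulators).

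Values near 0 also turned: B2m at day 4 to -0.01 (blocks); class I-like chains to -0.10 (processed signals), -0.03 (blocks) and between -0.14 and 0.22 without an array; loading helpers to -0.04 (processed signals) and between -0.16 and 0.16; endothelium between -0.21 and 0.04; interferon-responsive genes between -0.27 and 0.23. The median of all genes at day 7 was -0.02 with no filter and -0.01 with the strict one, and -0.01 over the average with no filter. In channels, day 7 minus day 2, without scaling between arrays H2-D1 in ethanol was -0.20 (-0.08 with quantile), Psmb9 in ethanol -0.16, H2-T23 in cyclosporin A -0.18 and the 9 genes' ethanol median -0.12. Without an array these were -0.03 to 0.11, -0.03 to 0.08 and -0.13 to 0.27 for H2-D1, Psmb9 and H2-T23.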
